A study of Zea mays with 137 samples.

Results

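The genes described here are the 150 genes of maize chromosomes 2, 7, 8 and 10 whose leaf expression varied most among the diploid control groups of an aneuploidy study. They were selected on the control means alone: a gene had to have its lowest diploid mean below 5 FPKM (fragments per kilobase of transcript, scaled to the fragments mapped in a library) and its highest at 10 FPKM or above. The 438 genes that met both limits were ranked by the log2 ratio of highest to lowest mean, each raised by 0.5 FPKM, and the first 150 were kept. They come from 14725 genes on the 4 chromosomes and from 41448 genes in the series. None of the varied arms lies on chromosomes 2, 7, 8 or 10, so the members were present in 2 copies in every group. An effect of arm dose on a member would be a *trans* effect, and whether a given change was such an effect was not tested. In maize, a change in the dose of one chromosome arm is known to alter the expression of genes on other chromosomes, and an effect opposite to the dose of the arm is called an inverse effect. Such effects are read against a diploid control, so a control level that itself varies between groups bears on every comparison made with it.

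The plants were of the maize line W22 and carried B-A translocations, in which an arm of a normal chromosome is joined to the centromere of the supernumerary B chromosome. The B centromere often fails to separate at the second pollen mitosis, so that pollen of a translocation plant delivers different doses of the attached arm. Males that were hyperploid for one arm and euploid for the other were crossed to an *r1-r* W22 female. The progeny, karyotyped by fluorescence in situ hybridization, gave combined aneuploids and segregating diploids of the same cross. A control group thus shares parents, germination time and collection with its own aneuploids and not with the controls of another pair.

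Leaves of 45-d-old plants were sampled at midday for 9 pairs of arms, with 33 aneuploid combinations (108 plants) and 29 diploid plants. The pairs, in order of germination, were 1L+5S, 1S+9L, 3L+5L, 4L+6L, 6L+9S, 1L+3L, 5L+6L, 3L+4L and 4L+5L. There were 9 double trisomies, 15 combinations of a trisomy with a monosomy, 6 double monosomies and 3 combinations with a tetrasomic arm. The last were trisomy 1L+tetrasomy 5S, tetrasomy 3L+trisomy 5L and trisomy 4L+tetrasomy 6L, each a single plant. Other combinations had 2 to 5 plants and control groups 2 to 4. For 1 plant titled monosomy 1S+trisomy 9L the karyotype list gives the opposite combination, and the mean of that group could not be formed without it. In 1L+3L and in 6L+9S every control plant was euploid with a translocation, as was 1 of the 4 controls in 5L+6L; the remaining controls were normal diploids. In 9 combinations the collection list notes a mid-rib or a leaf position for at least 1 plant.

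Each value below is the authors' group mean in FPKM. Values per plant and read counts were not used here, so no mean has an error and the depth behind a mean cannot be given. The 9 pairs were scaled in separate tables, and levels set side by side across pairs are descriptions. The sum of all means of a group ran from 570672 to 654278 FPKM. The leaf gene Zm00004b018833, a photosystem II reaction centre W protein, was listed at 601 to 1465 FPKM in the 9 diploid groups, and none of the 10 genes named in the study's ddPCR assay was among the members. Genes of the B chromosome summed to 294, 368 and 175 FPKM in the diploids of 6L+9S, 1L+3L and 5L+6L, against 32.7 to 61.8 FPKM in the other 6 diploid groups.

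The range of the members was wide. The diploid ratio was 7.03 on the log2 scale for Zm00004b026571, had a median of 3.47 and ended at 2.64. At the limit, Zm00004b036707 (2.64) and Zm00004b040644 (2.64) were the last inside, and Zm00004b010718 (2.63) and Zm00004b026525 (2.62) the first outside. The median of the highest diploid mean was 20.1 FPKM and that of the lowest 1.55 FPKM. The highest diploid mean was at 50 FPKM or above in 24 members and below 20 FPKM in 73. In 9 members at least 1 diploid group was listed at 0. The members lay on chromosome 2 (45 genes), 7 (40), 8 (39) and 10 (26). Their loci were short, with a median length of 1554 bp, against 4414 bp for the 4082 genes of the same chromosomes that reached 10 FPKM in a diploid group. The median was 1879.5 bp for the next 150 genes of the ranking and 2136 bp for all genes that met both level limits. Loci under 1000 bp made up 35.3% of the members and 8.43% of those 4082 genes. They made up 26.0% of the next 150 genes and 25.3% of all genes that met both level limits. Short loci were thus not particular to the members. The gene identifiers are of the W22 annotation and are paired with no names or functions in the sources used here, so no role is given for any member. Positions are those of the deposited tables on W22, counted from 1.

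The highest diploid means were concentrated in the pairs that germinated first. The highest mean was in 3L+5L for 41 members, in 1S+9L for 40 and in 1L+5S for 20, or 101 of 150 in all (67.3%). Among the 4082 genes above 10 FPKM the same 3 pairs held 46.6% of the highest means. They held 65.3% for the next 150 genes of the ranking and 62.8% for all genes that met both level limits. The lowest mean was in 6L+9S for 41 members and in 1L+3L for 27, which is 45.3% of the members against 29.8% of the 4082 genes. These 2 pairs held it for 42.7% of the next 150 genes and 40.6% of all genes that met both level limits. Neither concentration was thus particular to the members. Ties at 0, which concerned 5 members, were counted for the earlier pair. Among pairs with normal diploids only, 4L+6L held the lowest mean for 23 members and 3L+4L for 19 (24.4% and 3.60% of the 4082 genes). In 5L+6L, with a translocation in 1 of its 4 controls, 10 members were lowest and 18 highest (8.77% and 4.63% of the 4082 genes). In 6L+9S and 1L+3L every control carried a translocation, the summed B-chromosome levels of the diploids were the highest of the 9 pairs, and the pairs follow each other in order of germination. These cannot be told apart. The rule used these values, and they are given as a description.

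**Figure D1:**
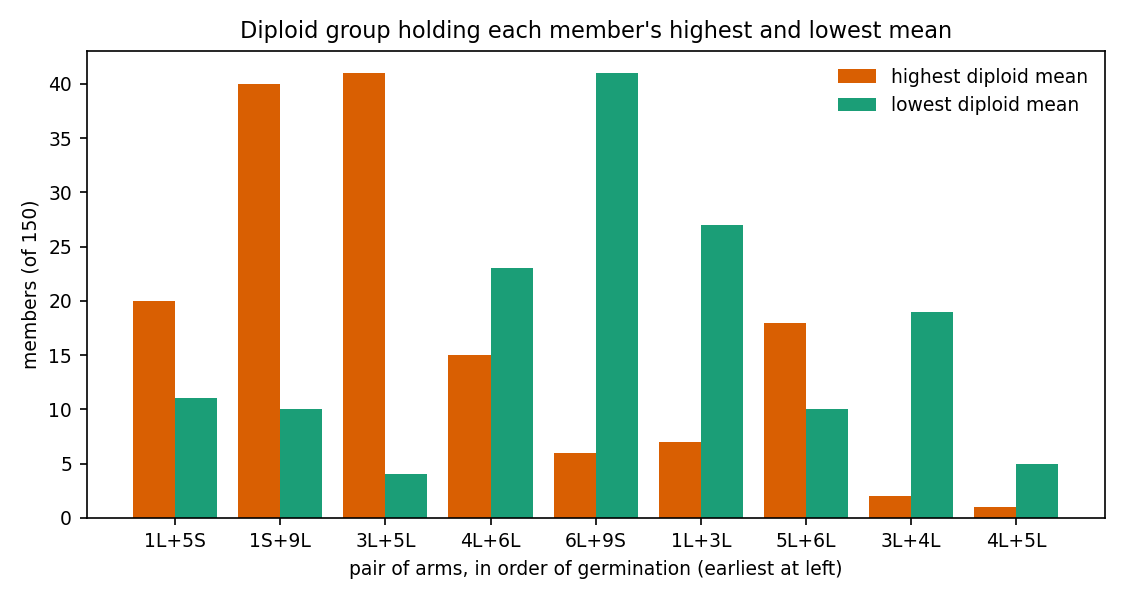
Number of members (of 150, y axis) whose highest (orange) or lowest (green) diploid mean lay in the control group of each pair of arms (x axis, in order of germination). The highest means peak at 3L+5L (41) and 1S+9L (40) and the lowest at 6L+9S (41).

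Most members split the controls into several groups. On the log2 scale, with the midpoint of a gene taken between its highest and lowest diploid mean, 95 members had 3 or 4 diploid groups above the midpoint and 35 had 5 or more. Only 13 had 2 such groups and 7 had 1. The diploid group of 3L+5L lay above the midpoint for 121 members and that of 1S+9L for 106, while that of 3L+4L did so for 23.

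The aneuploid plants were not used to choose the members, and their means were used to describe how far these differences go with the pair. When the aneuploid means of each pair were averaged on the log2 scale, the range over the 9 pairs had a median of 2.10 for the members, against 1.24 for the next 150 genes of the ranking and 0.59 for the 4082 genes. The members also varied more within a pair. The SD of the aneuploid combinations around their pair mean had a median of 1.06 on the log2 scale, against 0.62 for the next 150 genes and 0.31 for the 4082 genes. Both kinds of variation were larger in nearly the same proportion. The pair accounted for a median of 31.4% of the sum of squares of the 33 aneuploid means in the members and 30.8% in the 4082 genes. Variation within pairs alone also gives such a share and a range of pair means, and the part due to it was not estimated. It accounted for at least 50% in 26 members, or 17.3%, and in 8.72% of the 4082 genes. The correlation of a member's diploid mean with its aneuploid pair mean over the 9 pairs had a median of 0.49, and 0.45 for the 4082 genes, where each pair of points shares a table and a germination time.

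The pair with the extreme diploid was the pair with the extreme aneuploids in shares close to those of the 4082 genes. The pair highest among diploids was also highest among aneuploid pair means for 33 members (22.0%, and 26.4% of the 4082 genes), and the lowest pair was the same for 54 (36.0%, and 31.0%). The aneuploids of 1S+9L held the highest pair mean for 6 members, although the diploids of that pair held it for 40. The aneuploids of 5L+6L held it for 35, and those of 3L+5L for 32. At the low end the aneuploids of 6L+9S held the lowest pair mean for 53 members. Relative to each gene's median over the 9 pairs, the median member was -0.10 in the aneuploids of 1S+9L against 1.08 in its diploids (log2). In 3L+5L it was 0.28 in the aneuploids against 1.42 in the diploids, and in 6L+9S -0.48 in the aneuploids against -0.40 in the diploids.

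For each member, every aneuploid mean was then placed above or below the gene's midpoint. Of 4950 aneuploid means (150 genes in 33 combinations), 61.8% lay on the same side as the diploid of their own pair, while 51.9% lay on the side of the diploids of the other 8 pairs, averaged. The values were 63.2% and 52.6% for the next 150 genes, and 62.0% and 52.2% for all 438 genes within the limits. With the midpoint taken on the FPKM scale the members had 71.7% and 65.8%, a smaller gap between own and other pairs. In the pair with the lowest diploid 75.4% of the aneuploid means were on the low side, and in the pair with the highest diploid 59.3% were on the high side. These diploid means were picked as the extremes of each gene.

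The share differed with the type of combination. In double trisomies 71.6% of the means were on the side of their own diploid, against 57.6% where a trisomy was joined with a monosomy, 57.4% in double monosomies and 61.8% in combinations with a tetrasomic arm. The diploids of the other pairs gave 51.1%, 53.1%, 53.1% and 46.3% for these 4 types. All 438 genes within the limits had 70.8%, 58.9%, 57.8% and 59.0% on the side of their own diploid, with double trisomies again the highest. In the pair with the highest diploid the double trisomy was on the high side for 79.3% of the members, and the trisomy with monosomy combinations for 43.5%. By combination the share ran from 38.7% in trisomy 1S+monosomy 9L to 88.0% in double trisomy 3L+4L and in monosomy 6L+trisomy 9S. A mean on the side of its diploid need not be at the same level. In monosomy 6L+trisomy 9S the median change of the members from their diploid was -0.61 (log2). The 9 combinations with a note on mid-rib or leaf position had 53.6% on the side of their own diploid and 54.2% on that of the other pairs' diploids, and the other 24 combinations had 64.9% and 51.1%. These are group means without replicate error, and the part of leaf sampling in the difference between types was not tested.

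**Figure D2:**
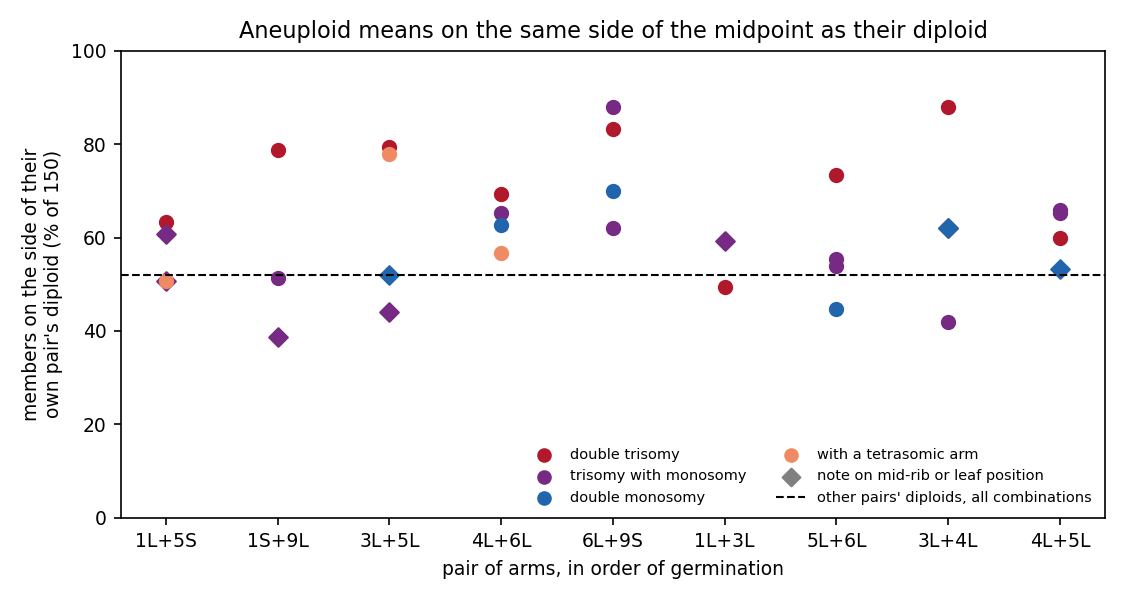
Percentage of the 150 members (y axis) whose mean in an aneuploid combination lay on the same side of the gene's midpoint as the diploid of its own pair, by pair of arms in order of germination (x axis); colours give the type of combination and diamonds a note on mid-rib or leaf position. The points run from 38.7% (trisomy 1S+monosomy 9L) to 88.0%, and the dashed line marks the 51.9% found for the diploids of the other pairs.

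A few members kept the level of the pair in nearly every group. Zm00004b037195 (chromosome 7, 166598463-166602343) had 11.2 FPKM in double trisomy 1S+9L, 12.6 FPKM in monosomy 1S+trisomy 9L and 9.66 FPKM in trisomy 1S+monosomy 9L, against 10.5 FPKM in the diploids of the pair. In the other 8 pairs it was listed at 0 in every diploid and aneuploid group, except for 0.0171 FPKM in trisomy 4L+monosomy 6L. All groups of 1S+9L were therefore separated from all groups of the other pairs. No fold is given against groups at 0. The gene was singled out after its values were seen, since only 1 of its diploid groups lay above the midpoint.

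Zm00004b010570 (chromosome 2, 237687233-237690195) marked the 2 pairs that involve arm 1L. It had 6.88, 7.84 and 4.58 FPKM in double trisomy 1L+5S, monosomy 1L+trisomy 5S and trisomy 1L+monosomy 5S, against 13.0 FPKM in their diploids. In 1L+3L it had 5.35 FPKM in the double trisomy and 4.17 FPKM in trisomy 1L+monosomy 3L, against 7.37 FPKM in the diploids. The single plant with trisomy 1L+tetrasomy 5S was listed at 0, as were all other groups except double monosomy 3L+4L (0.0457 FPKM). Its level was thus on the side of its own diploid in 32 of 33 combinations.

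Zm00004b010577, less than 1 Mb further along chromosome 2 (237838811-237842479), also kept its side in 32 of 33 combinations. It had 11.9, 14.1 and 18.1 FPKM in double trisomy, monosomy 1L+trisomy 5S and trisomy 1L+monosomy 5S, 2.62 FPKM in the tetrasomy 5S plant and 15.1 FPKM in the diploids of 1L+5S. In 1L+3L it had 20.2 and 22.7 FPKM in the double trisomy and trisomy 1L+monosomy 3L, against 11.4 FPKM in the diploids. In 1S+9L its aneuploid means were 5.54 to 21.0 FPKM, against 8.43 FPKM in the diploids. The aneuploid means of the other 6 pairs ran up to 3.28 FPKM and their diploids up to 2.42 FPKM. The same tetrasomy 5S plant was low for both neighbours.

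Zm00004b035666 (chromosome 7, 85877864-85878904) was on the side of its own diploid in 30 of 33 combinations. In 1L+3L it had 39.6 FPKM in the double trisomy and 83.7 FPKM in trisomy 1L+monosomy 3L, against 27.5 FPKM in the diploids. The aneuploid means of 1L+5S were 38.0, 28.9 and 14.2 FPKM, and 0 in the tetrasomy 5S plant, against 10.8 FPKM in the diploids. In 5 pairs (3L+5L, 4L+6L, 6L+9S, 5L+6L and 4L+5L) no group exceeded 0.337 FPKM. Beside the tetrasomy 5S plant, the exceptions lay in 1S+9L and 3L+4L, where monosomy 1S+trisomy 9L and double trisomy 3L+4L were listed at 0, against 6.98 and 9.56 FPKM in the diploids of these pairs. Trisomy 1S+monosomy 9L had 113 FPKM, the highest of all 42 group means.

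Zm00004b034834 (chromosome 7, 7195304-7196347), also on its own diploid's side in 30 of 33 combinations, divided the pairs in another way. In 5L+6L its aneuploid means were 4.76 to 21.8 FPKM, against 19.9 FPKM in the diploids. It was below 1 FPKM in every group of 1L+5S, 1S+9L, 4L+6L, 6L+9S and 4L+5L. In 3L+5L it had 9.40 FPKM in the double trisomy and 0.133 FPKM in tetrasomy 3L+trisomy 5L, against 4.81 FPKM in the diploids.

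**Figure D3:**
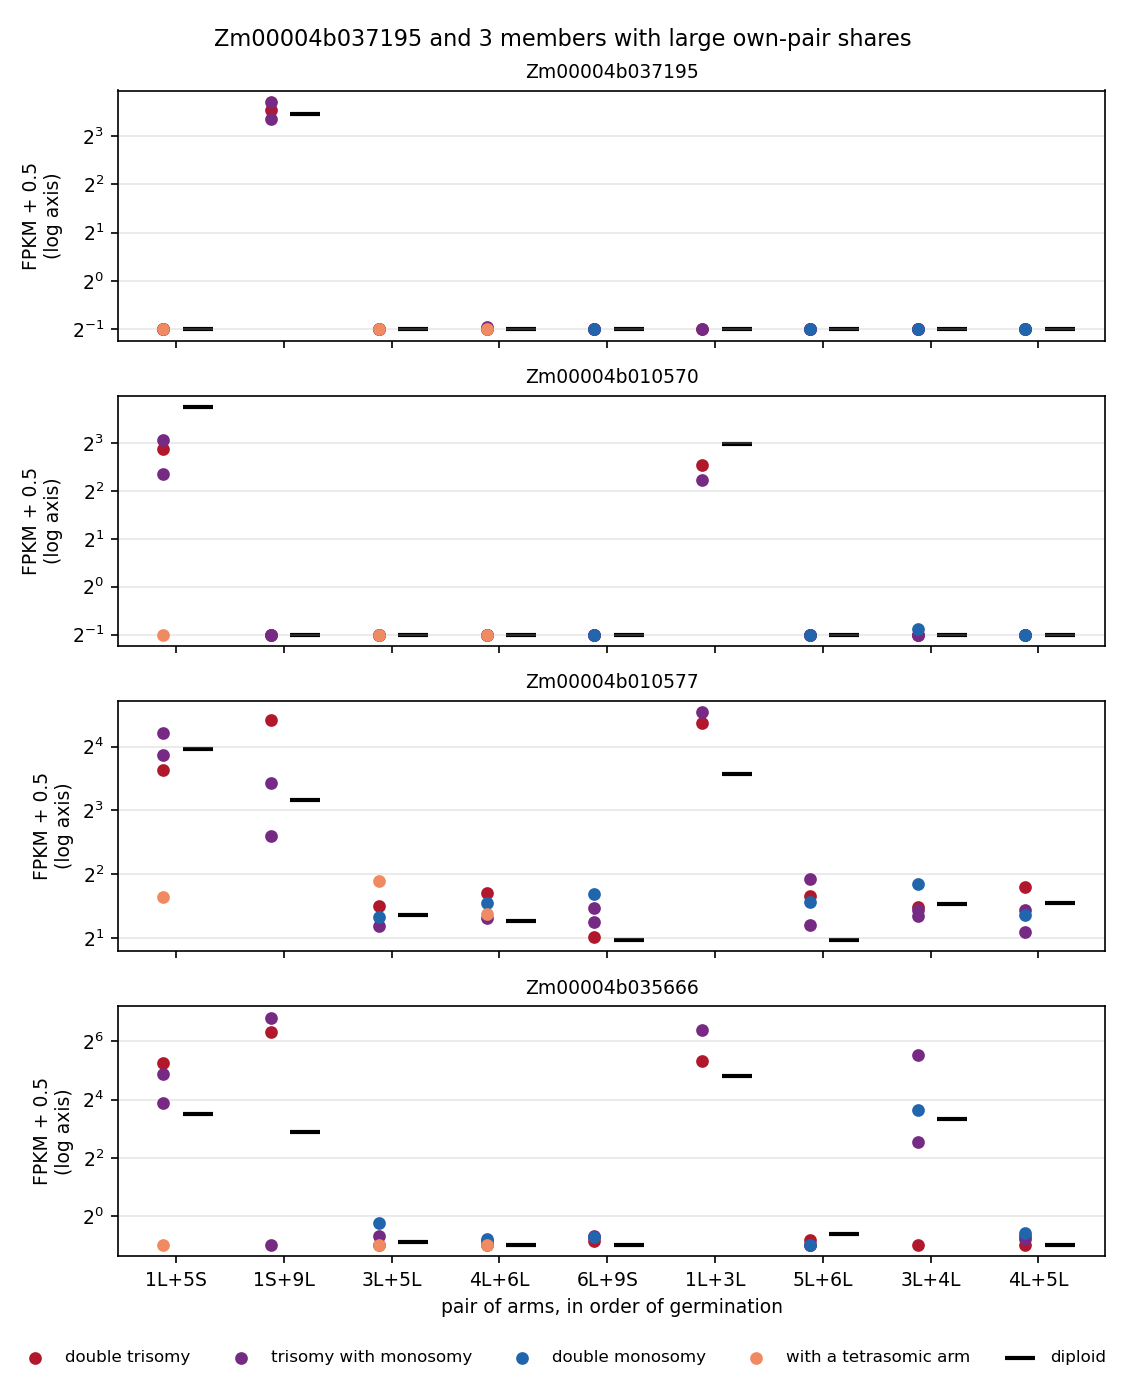
Group means of Zm00004b037195, Zm00004b010570, Zm00004b010577 and Zm00004b035666 (FPKM + 0.5, log axis) by pair of arms in order of germination; points are aneuploid combinations coloured by type, and the black bar to their right is the diploid group. Zm00004b037195 is at 9.66 to 12.6 FPKM in the groups of 1S+9L and at or near 0 elsewhere.

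In all, 8 members had a pair in which no group reached 1 FPKM, and 5 had at least 4 such pairs. The fifth of these, Zm00004b007545 (chromosome 2, 58701562-58702916), had diploid means of 12.8 FPKM in 5L+6L, 2.69 FPKM in 3L+5L and 1.91 FPKM in 4L+5L, and was listed at 0 in the other 6 diploid groups. Its aneuploid means were on the side of their own diploid in 27 of 33 combinations, and no group of those 6 pairs exceeded 0.0579 FPKM. Within the other 3 pairs the combinations divided. In 4L+5L they were 25.6 FPKM in the double trisomy and 24.3 FPKM in monosomy 4L+trisomy 5L, and 0 in trisomy 4L+monosomy 5L and in the double monosomy. In 3L+5L and 5L+6L as well, the combinations with monosomy 5L were at 0 or 0.0706 FPKM and those without it at 8.89 FPKM or above. This gene was singled out after its values were seen.

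Some other members with large diploid ratios behaved differently from these, although Zm00004b035666 above is itself among the 10 with the largest ratio. Zm00004b026571 (chromosome 8, 126873837-126876455) had diploid means of 71.4 FPKM in 1S+9L, 55.0 FPKM in 1L+5S and 21.1 FPKM in 4L+5L, and of 0.0487 FPKM in 4L+6L. In 1S+9L it had 37.2 FPKM in the double trisomy, 0.707 FPKM in monosomy 1S+trisomy 9L and 0.186 FPKM in trisomy 1S+monosomy 9L, against the 71.4 FPKM of the diploids. In 1L+5S all 4 aneuploid means were 1.05 FPKM or below, double trisomy included, against 55.0 FPKM in the diploids. In 3L+5L the tetrasomy 3L+trisomy 5L plant had 165 FPKM and the double trisomy 12.5 FPKM, while trisomy 3L+monosomy 5L and the double monosomy had 0.156 and 0.216 FPKM, against 15.0 FPKM in the diploids. Its level was on the side of its own diploid in 16 of 33 combinations.

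Other members of large ratio had like patterns. Zm00004b007975 (chromosome 2, 105994977-105997146) had 60.2 FPKM in double trisomy 1S+9L and 1.44 FPKM in trisomy 1S+monosomy 9L, against 99.3 FPKM in the diploids. It had 171 FPKM in tetrasomy 3L+trisomy 5L, against 26.4 FPKM in the diploids. Zm00004b037268 (chromosome 7, 168936850-168937881) had 93.8 and 2.71 FPKM in the same 2 combinations of 1S+9L, against 105 FPKM in the diploids. Over the 33 aneuploid means, which share tables and plants, Pearson's r with Zm00004b026571 was 0.88 for Zm00004b037268, 0.87 for Zm00004b007975, 0.84 for Zm00004b027924 and 0.84 for Zm00004b040644. An r of at least 0.8 was found for 7 of the other 149 members (4.70%) and for 0.711% of the 4082 genes.

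Zm00004b025044, Zm00004b036513, Zm00004b039074 and Zm00004b037804 also had their highest diploid mean in 1S+9L. Zm00004b025044 (chromosome 8, 20712621-20715161) had 13.2, 2.01 and 1.59 FPKM in the 3 aneuploid combinations of that pair, against 68.1 FPKM in the diploids. Zm00004b036513 (chromosome 7, 143463585-143465512) had 0.367 to 6.48 FPKM there, against 59.3 FPKM. For Zm00004b039074 (chromosome 10, 91448837-91449784) the double trisomy had 62.3 FPKM and trisomy 1S+monosomy 9L 0.656 FPKM, against 113 FPKM in the diploids. For Zm00004b037804 (chromosome 10, 2107402-2116932) the double trisomy had 24.4 FPKM and trisomy 1S+monosomy 9L 0.703 FPKM, against 25.5 FPKM. In each of these 4 genes the double trisomy was the aneuploid group nearest to the diploids of 1S+9L. The listed plants of trisomy 1S+monosomy 9L were collected with a mid-rib, whose part in these values was not tested.

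**Figure D4:**
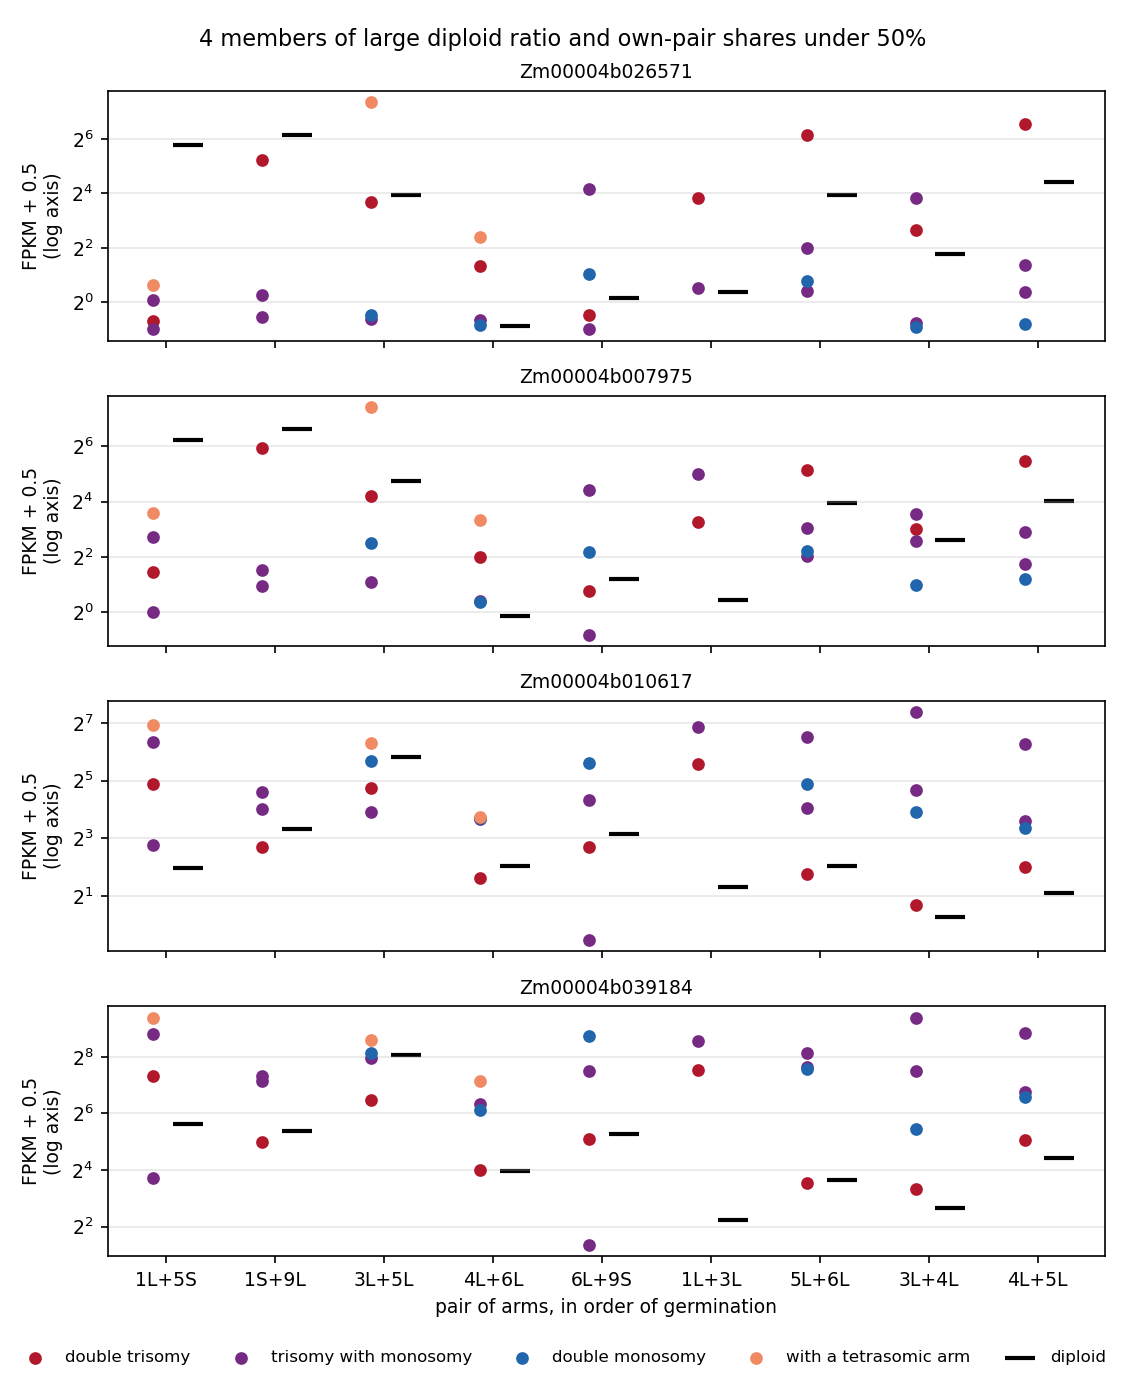
Group means of Zm00004b026571, Zm00004b007975, Zm00004b010617 and Zm00004b039184 (FPKM + 0.5, log axis) by pair of arms in order of germination; points are aneuploid combinations coloured by type, and the black bar to their right is the diploid group. For Zm00004b026571 the 1S+9L aneuploids spread from 0.186 to 37.2 FPKM beside diploids at 71.4 FPKM.

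In a further set of members the aneuploid means rather than the diploids held the high values. Zm00004b039184 (chromosome 10, 98666785-98667942) had the highest diploid mean of all members, 269 FPKM in 3L+5L. Its aneuploid means there were 89.2 FPKM in the double trisomy, 245 FPKM in trisomy 3L+monosomy 5L, 283 FPKM in the double monosomy and 383 FPKM in the tetrasomy 3L plant. In 1L+3L it had 187 FPKM in the double trisomy and 372 FPKM in trisomy 1L+monosomy 3L, against 4.24 FPKM in the diploids. In 3L+4L monosomy 3L+trisomy 4L had 655 FPKM and the double trisomy 9.47 FPKM, against 5.79 FPKM in the diploids. In 9 combinations it exceeded its highest diploid mean.

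Zm00004b010617 (chromosome 2, 238992358-238993509) had the smallest own-pair share of the members that qualified, 13 of 33 combinations. It had 164 FPKM in monosomy 3L+trisomy 4L, 25.1 FPKM in trisomy 3L+monosomy 4L, 14.5 FPKM in the double monosomy and 1.12 FPKM in the double trisomy, against 0.708 FPKM in the diploids of 3L+4L. In 1L+3L its double trisomy had 47.7 FPKM and trisomy 1L+monosomy 3L 115 FPKM, against 1.98 FPKM. Zm00004b007067, the third of the members by diploid ratio, had 24.3 and 50.6 FPKM in the same 2 combinations of 1L+3L, against 0.619 FPKM in the diploids. In 3L+5L its 4 aneuploid means were 11.6 to 65.2 FPKM, against 94.2 FPKM in the diploids.

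Zm00004b010119, Zm00004b006391 and Zm00004b036547 also had small shares, with 14 of 33 combinations each. Zm00004b010119 (chromosome 2, 223241379-223243864) had 12.9 FPKM in double trisomy 5L+6L, 41.3 FPKM in monosomy 5L+trisomy 6L, 17.2 FPKM in trisomy 5L+monosomy 6L and 8.66 FPKM in the double monosomy, against 56.7 FPKM in the diploids. The 3 aneuploid means of 1S+9L were 0.908 to 2.00 FPKM, against 1.90 FPKM in the diploids. Zm00004b006391 (chromosome 2, 12047697-12049257) had 2.67 and 3.71 FPKM in the aneuploid combinations of 1L+3L, against 0.268 FPKM in the diploids. Zm00004b036547 (chromosome 7, 144745181-144749465) stayed at 0.447 FPKM or below in the aneuploids of 1S+9L, against 0.121 FPKM in the diploids. In 5L+6L it had 1.22 FPKM in the double trisomy, 7.14 FPKM in monosomy 5L+trisomy 6L, 4.73 FPKM in trisomy 5L+monosomy 6L and 6.82 FPKM in the double monosomy, against 10.6 FPKM in the diploids.

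Zm00004b038252 (chromosome 10, 23963187-23963501) was low in a single diploid group. In 4L+6L it had 9.91 FPKM in the double trisomy and 3.97 FPKM in trisomy 4L+monosomy 6L, and 79.3 FPKM in the double monosomy and 74.4 FPKM in the tetrasomy 6L plant, against 2.41 FPKM in the diploids. The other 8 diploid groups had 48.2 to 112 FPKM. Its locus of 315 bp has the same length as that of the member Zm00004b038249 nearby, and whether reads were shared between such neighbours was not tested.

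Neighbouring members with the same highest pair formed 11 runs of 23 genes, at a spacing of under 1 Mb. No count of runs among other genes is given here, so nothing is read from this number. The longest was on chromosome 10 with Zm00004b038177 (17778087-17779241), Zm00004b038178 (17781020-17782168) and Zm00004b038179 (18004678-18005709), all highest in the diploids of 3L+5L. In monosomy 4L+trisomy 5L they had 61.7, 67.9 and 49.5 FPKM, against 7.52, 7.18 and 11.3 FPKM in the diploids of 4L+5L. In 3L+5L the double trisomy had 4.47, 5.12 and 5.95 FPKM, against 19.3, 28.4 and 26.2 FPKM in the diploids. Over the 33 aneuploid means Pearson's r was 0.99, 0.93 and 0.95 for the 3 pairings of these genes. Near-identical copies could divide reads between them, which was not tested here.

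The aneuploid means were compared with the diploid of their own pair by a 2-fold limit, in gene by combination values. Since the diploid mean also chose the members, nothing is read from these counts. Double trisomies were at least 2-fold higher in 250 of 1350 values (1.75% of all values on the 4 chromosomes with 5 FPKM or more in either group, a limit not set for the members) and lower in 232 (2.72%). For a trisomy with a monosomy, 541 of 2250 were higher (4.66%) and 587 lower (5.79%). For double monosomies, 245 of 900 were higher (6.77%) and 187 lower (3.66%). With a tetrasomic arm, 154 of 450 were higher (6.59%) and 98 lower (8.03%). In the pair with the highest diploid 332 of 546 values were lower and 26 higher, and in the pair with the lowest diploid 230 of 536 were higher and 17 lower.

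A comparison that uses no diploid value was possible within the 6 pairs with both a double monosomy and a double trisomy. It asks whether the members differ between loss and gain of the same arms, and the pairs are taken as the replicates. Arms 3L, 4L, 5L and 6L each recur among these 6 pairs, so the pairs are not fully independent. Genes of the B chromosome summed to 785 to 1102 FPKM in the double trisomies and 118 to 218 FPKM in the double monosomies. Dose of the arms and of the B chromosome parts joined to them cannot be told apart here. By limma, with Benjamini-Hochberg adjustment over 20874 genes, 10 of the 148 members tested were higher in double monosomies (2.86% of the 7513 genes tested on the 4 chromosomes) and 1 was lower (0.319%). The 2 members not tested, Zm00004b037195 and Zm00004b010570, were below the limit of 0.5 FPKM. At an unadjusted p below 0.05 (limma), 33 of the 148 members were higher and 13 lower, while 1456 of the 7513 genes were higher. The share of higher members was thus close to that of the 7513 genes. No count of lower genes at this limit is given here, so nothing is read from the 13. After adjustment 215 genes of the 4 chromosomes were higher and 24 lower. Over all 7513 genes tested there, called or not, the median difference was 0.12 (log2). The counts of called genes were 54 and 27 when each group was centred on its median, which moved the median difference to -0.04. With centring 7 members were higher and 2 lower.

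The largest positive differences were in Zm00004b038617, Zm00004b039102 and Zm00004b010685. Zm00004b038617 (chromosome 10, 64121075-64124071) had 489, 32.8, 9.45, 46.3, 57.5 and 322 FPKM in the double monosomies of 3L+5L, 4L+6L, 6L+9S, 5L+6L, 3L+4L and 4L+5L. In the double trisomies of these pairs, in the same order, it had 39.7, 4.36, 1.66, 1.51, 5.60 and 3.60 FPKM. The double monosomy had the higher mean in 6 of 6 pairs, and the difference was 3.78 ± 0.49 (log2, SE, limma adjusted p = 0.0223). Its diploid means in these pairs were 1.65 to 41.0 FPKM.

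Zm00004b039102 (chromosome 10, 93762840-93764911) had 176, 3.23, 8.15, 4.94, 15.1 and 114 FPKM in the double monosomies, in that order of pairs, and 12.0, 0.347, 0.254, 0.133, 0.621 and 1.30 FPKM in the double trisomies. The difference was 3.73 ± 0.43 (log2, SE) with an adjusted p of 0.0223 by limma. Zm00004b010685 (chromosome 2, 240633876-240634454) had 94.5, 29.7, 9.68, 163, 75 and 55.9 FPKM in the double monosomies and 2.08, 14.2, 2.12, 2.25, 2.51 and 4.22 FPKM in the double trisomies. The difference was 3.72 ± 0.63 (log2, SE) with an adjusted p of 0.0358 by limma. In both genes the double monosomy was higher in 6 of 6 pairs.

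The other 7 members that rose were Zm00004b035003, Zm00004b007161, Zm00004b035272, Zm00004b039184, Zm00004b034914, Zm00004b034934 and Zm00004b010617, by 2.27 to 3.67 (log2), each in 6 of 6 pairs. Zm00004b007161 (chromosome 2, 39450471-39450995) reached 931 FPKM in trisomy 3L+monosomy 5L and 482 FPKM in double monosomy 3L+5L, against 156 FPKM in the diploids. Over the 33 aneuploid means, Pearson's r with Zm00004b038617 was 0.92 for Zm00004b039102, 0.91 for Zm00004b035003 and 0.88 for Zm00004b007161.

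The member that fell was Zm00004b034930 (chromosome 7, 10653559-10655545). It had 3.52, 2.00, 3.94, 2.53, 3.07 and 1.74 FPKM in the double monosomies and 11.0, 8.14, 4.12, 11.0, 20.9 and 16.2 FPKM in the double trisomies, in the same order of pairs. The double monosomy had the lower mean in 6 of 6 pairs, and the difference was -1.79 ± 0.35 (log2, SE, limma adjusted p = 0.0456). In 6L+9S the double monosomy and double trisomy differed by only -0.06. Its neighbour Zm00004b034934, also a member, rose by 2.41 ± 0.41 (log2, SE, limma adjusted p = 0.0358). Zm00004b026571, first by diploid ratio, was lower in 5 of 6 pairs, by -3.53 ± 1.00 (log2, SE), and did not pass (limma adjusted p = 0.0990).

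**Figure D5:**
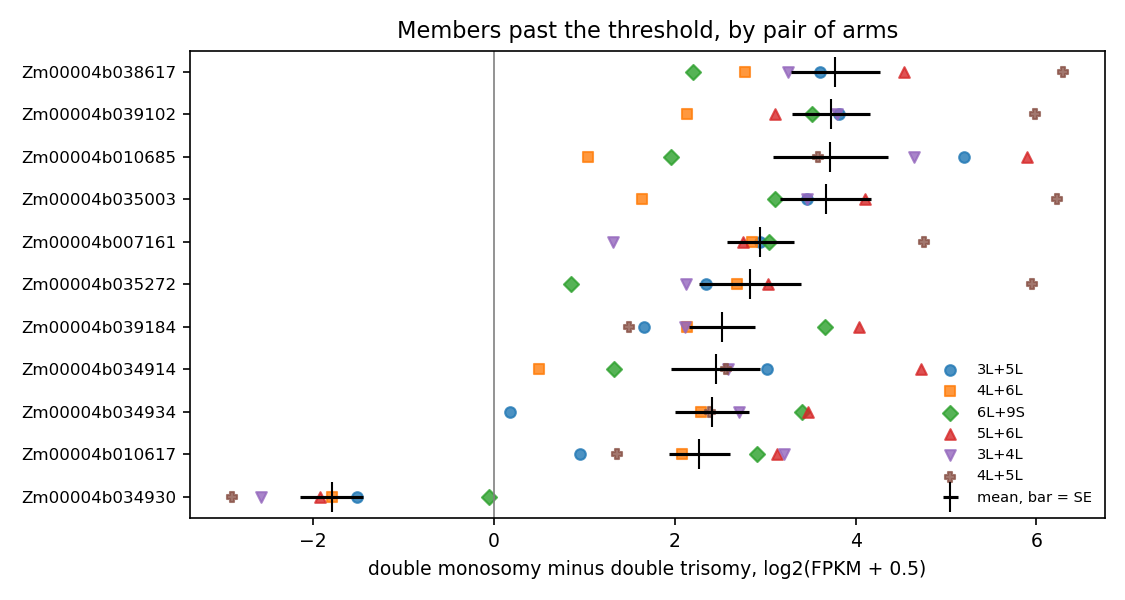
Difference double monosomy minus double trisomy on the log2(FPKM + 0.5) scale (x axis) for the 11 members past the threshold (y axis); coloured symbols are the 6 pairs of arms, and the black mark and bar are the mean and its SE. Zm00004b038617 is at 3.78 and Zm00004b034930 at -1.79, and each gene has the same sign in 6 pairs.

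These calls rest on few pairs. Each of the 11 members had the same sign in 6 of 6 pairs, so leaving out a pair could not reverse a difference. With a pair left out, the difference ran from 3.27 to 4.09 for Zm00004b038617 and from 2.58 to 3.27 for Zm00004b007161 (log2). Without 5L+6L no member was called higher. In that fit 24 of 148 members and 1016 of 7508 genes of the 4 chromosomes were higher at an unadjusted p below 0.05 (limma). Without 3L+4L 1 member was called higher (Zm00004b007161), and without 4L+5L 1 (Zm00004b039102). Without 6L+9S 9 members were called higher and 6 lower, the lower ones with Zm00004b026571, Zm00004b007975 and Zm00004b037268 among them, and leaving out any other single pair removed the call of Zm00004b034930 (limma). Without the 3 pairs whose double monosomy has a note on mid-rib or leaf position (3L+5L, 3L+4L and 4L+5L), 0 members were called higher. There 29 of 147 members and 712 of 7405 genes of the 4 chromosomes were higher at an unadjusted p below 0.05 (limma). The 1 member called lower was Zm00004b034742, with a difference of -5.53 (log2), which was named after its values were seen. The part of leaf sampling in the differences was not tested.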

How the data were processed

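The authors trimmed reads of rRNA-depleted, stranded libraries with fastp, removed organelle reads, aligned the rest with STAR to W22 and the B chromosome, and ran Cuffdiff; versions are not given in the sources used here. The deposited tables hold FPKM as group means per gene and the authors' fold changes, test statistics, p-values and q-values, which were not used. A locus without an identifier was left out. Locus starts were raised by 1, because the deposited starts count from 0: of 72 members with loci under 1500 bp, 65 then had a length that is a multiple of 3. The reference table of another maize line matched 0 identifiers.

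Groups follow the sample titles. Members and lists were chosen with earlier results of these data known. Double monosomies and double trisomies were compared with limma 3.58.1 (R 4.3.3) on log2(FPKM + 0.5) with the pair as block and a trend in the variance, over genes of chromosomes 1 to 10 with a mean of at least 0.5 FPKM, and called at an adjusted p below 0.05. The step was tested on simulated data. Named genes were the 10 with the largest diploid ratio, the 6 with the highest diploid mean, 4 each with the largest and smallest own-pair share among members with at least 2 diploid groups on each side of the midpoint, the 3 largest differences in each direction among those called, the genes at the limit of 150 and the longest run of neighbours. Python 3.11.15, numpy 2.4.6 and pandas 2.3.3 were used. Alternatives were other pseudocounts, filters, scalings, midpoints and limits, and leaving out pairs or combinations.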

Additional observations from a re-analysis of the deposited data

How the results depend on the processing

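No paired analysis was possible because the columns are group means and carry no replicate numbers of plants; the block in limma is the pair of arms. Without plant values no group mean has a replicate error, the errors of the double monosomy comparison are over pairs that share arms, and the depth behind low means cannot be given. Germination time and translocations in the controls go with the pairs and leaf sampling with the combinations, and they cannot be told apart from them.

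With pseudocounts of 0.1 or 1 FPKM, no pseudocount, table scaling or all control values, 142 to 150 of the 150 members were kept, and 130 to 149 when a pair was left out. A lowest mean below 1 FPKM left 48 genes, all members, and no level limits kept 85. With table scaling, 96 members were highest in the 3 first germinated pairs and 65 lowest in 6L+9S or 1L+3L. The own-pair share was 71.7% with the midpoint on the FPKM scale (65.8% for the other pairs), 64.9% without combinations with a leaf note, and 60.4% to 62.2% when a pair was left out. Values at least 2-fold higher than the diploid made up 24.0% of the members' values, 26.3% and 22.3% with pseudocounts of 0.1 and 1 FPKM, and 10.5% at a log2 limit of 2. Lower values made up 22.3%, and 24.6%, 20.4% and 9.84% under the same changes.

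For double monosomy minus double trisomy, counts of members higher and lower were 4 and 0 with no filter, 8 and 0 at a mean of at least 5 FPKM, 16 and 3 when only the 4 chromosomes were tested, 7 and 2 with centring, 11 and 10 with a slope over all 33 combinations, and 14 and 3 with no pair block. They were 0 and 1 without the 3 pairs with a leaf note, and 0 and 0 without 5L+6L and 6L+9S. Without 5L+6L and 6L+9S, 24 members were higher and 20 lower at an unadjusted p below 0.05 (limma). At that limit 957 of 7537 genes of the 4 chromosomes were higher. No count of lower genes at that limit is given here, so nothing is read from the 20. Leaving out each pair gave 0 to 10 members higher and 0 to 6 lower. Genes of the 4 chromosomes higher and lower numbered 58 and 7 with no filter, 92 and 11 at 5 FPKM, 476 and 54 on the 4 chromosomes only, 54 and 27 with centring, 966 and 109 with the slope, 537 and 64 with no pair block, 0 and 2 without the pairs with a leaf note (712 higher at an unadjusted p below 0.05, limma) and 1 and 2 without 5L+6L and 6L+9S. Leaving out each pair gave 2 to 192 higher and 1 to 42 lower. The 11 called members kept their sign in all 16 alternatives, which most of these could not have changed, since each member had the same sign in 6 of 6 pairs. Of the 16 alternatives, Zm00004b039102 and Zm00004b007161 stayed called in 12 and Zm00004b038617 in 11. Zm00004b010685 stayed called in 8, Zm00004b034930 in 6, Zm00004b035272 in 5 and Zm00004b034914 in 4. The cause of these changes was not tested. Alternatives without leaf notes, without the translocation pairs and with table scaling of the highest and lowest pairs were chosen after seeing the data.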
